A study of Ovis aries with 40 samples.

Results

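The WNT signalling genes described here are 46 of the 24478 genes counted in fetal and newborn sheep lung. They were set by a rule on names: every counted gene whose symbol begins with WNT, FZD, SFRP, DKK or RSPO followed by a digit, together with LRP5, LRP6, AXIN2, LEF1, TCF7 and WIF1. By role they are 18 WNT ligands, 10 Frizzled (FZD) receptors, 2 LRP co-receptors, 9 secreted inhibitors (SFRP, DKK and WIF1), 4 R-spondins and 3 nuclear or target genes.

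WNT proteins are secreted lipid-modified signals that bind a Frizzled receptor, and in the canonical pathway also the co-receptor LRP5 or LRP6, which stabilises beta-catenin and switches on genes through the TCF/LEF factors. SFRP proteins and WIF1 bind WNT ligands outside the cell, DKK1 blocks the LRP co-receptors, and R-spondins strengthen the signal by protecting receptors from removal. In the embryonic lung, WNT2 and WNT2B from the mesenchyme help to specify the respiratory endoderm, WNT7B from the epithelium drives growth of the mesenchyme and its vessels, and WNT5A shapes the branching airways.

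RNA was sequenced from proximal and distal lung of American Romney sheep on gestational days 65, 80, 100 and 120 and at term (day 147), and each of the 20 conditions has 2 libraries. Wild type (WT) animals came from natural breeding, and the WT term lambs were born naturally. The CF animals (CFTR-/-) carried a targeted exon 2 of CFTR, the chloride channel gene mutated in cystic fibrosis, and were all made by somatic cell nuclear transfer from a male fetal fibroblast line, so that genotype cannot be told apart from cloning or from the sex and background of that line. The 2 libraries of a condition are separate animals by their labels except on WT day 100, where both carry the same animal label. Another animal label stands on both WT day 65 replicate 2 and CF day 100 replicate 2, and these libraries were placed by genotype and age.

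Library depth followed genotype before term. The 16 WT libraries taken before term had 24670355 to 43700012 reads assigned to genes, and the 16 CF libraries 85773994 to 103139483. At term the 4 WT libraries had 115937437 to 126749480 and the 4 CF libraries 117316905 to 119451372. CFTR was counted in every library, at 11.02 to 43.8 CPM (counts scaled to library size over all 40 libraries) in WT and 4.99 to 34.9 CPM in CF before term. At term it was at 9.58 to 14.8 CPM in WT and 3.65 to 5.14 CPM in CF. The transcript level alone does not check an exon 2 edit. The samples are labelled epithelial tissue, but 8 of 8 mesenchymal markers were counted and summed to 3624 to 25768 CPM, above the 484 to 1957 CPM of the 7 epithelial markers counted. In such mixed tissue, fewer cells of a type and less RNA per cell cannot be told apart. Libraries also differed in how reads fell on long and short genes: the slope of a library's log2 CPM, relative to each gene's mean, on log2 exonic length was -0.0245 to 0.0698 in WT before term, -0.244 to -0.0864 in WT at term, -0.203 to 0.193 in CF before term and -0.201 to -0.152 in CF at term. A slope below 0 means that long genes were counted lower in that library than in the others. In WT, the term libraries thus differed from the earlier ones in age, birth, depth and slope together, which the comparison of term with day 120 cannot tell apart.

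Levels between genes are compared per length, as RPKM (reads per kilobase of exon, scaled to library size). The ligands were led by WNT2 at a mean of 19.6 (range 1.66 to 44.7) RPKM over the 40 libraries, WNT11 at 15.6 (range 6.76 to 45.2) and WNT2B at 12.3 (range 6.81 to 20.6). The receptors were led by FZD2 at 21.3 (range 11.6 to 38.8) RPKM, FZD6 at 19.9 (range 9.18 to 36) and FZD4 at 16 (range 8.37 to 35.8). LRP5 averaged 19.1 (range 11.5 to 28.5) RPKM, above its paralogue LRP6 at 5.67 (range 1.09 to 11.3). The ranges of the 3 leading ligands overlapped, as did those of the 3 leading receptors, while those of LRP5 and LRP6 did not.

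Among secreted inhibitors DKK3, a member of the Dickkopf family by sequence, had the highest mean of all 46 genes over the 40 libraries, 37.5 (range 4.26 to 129) RPKM, followed by SFRP2 at 18.3 (range 0.928 to 86.5) and WIF1 at 14.7 (range 1.15 to 43.5). The rank of DKK3 pools unlike levels: its median was 42.5 CPM before term and 159 at term in WT, and 77.8 and 235 in CF. RSPO2 held 13.6 (range 1.62 to 21.3) RPKM, RSPO3 0.566 (range 0.0216 to 2.04) and RSPO1 0.189 (range 0.00621 to 0.649). LEF1, a DNA-binding partner of beta-catenin, averaged 9.63 (range 3.39 to 22.4) RPKM, AXIN2, a target gene that feeds back on the pathway, 7.87 (range 3.5 to 15.7), and TCF7 1.15 (range 0.0687 to 1.96). At the other end RSPO4, DKK4 and WNT1 passed the filter on low counts in no fit. RSPO4 reached at most 5 reads in a library, DKK4 12 and WNT1 4. WNT10A, WNT10B, WNT8A, WNT8B and WNT16 passed it in 4 to 7 of the 8 fits, and the other 38 members in all 8.

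**Figure D1:**
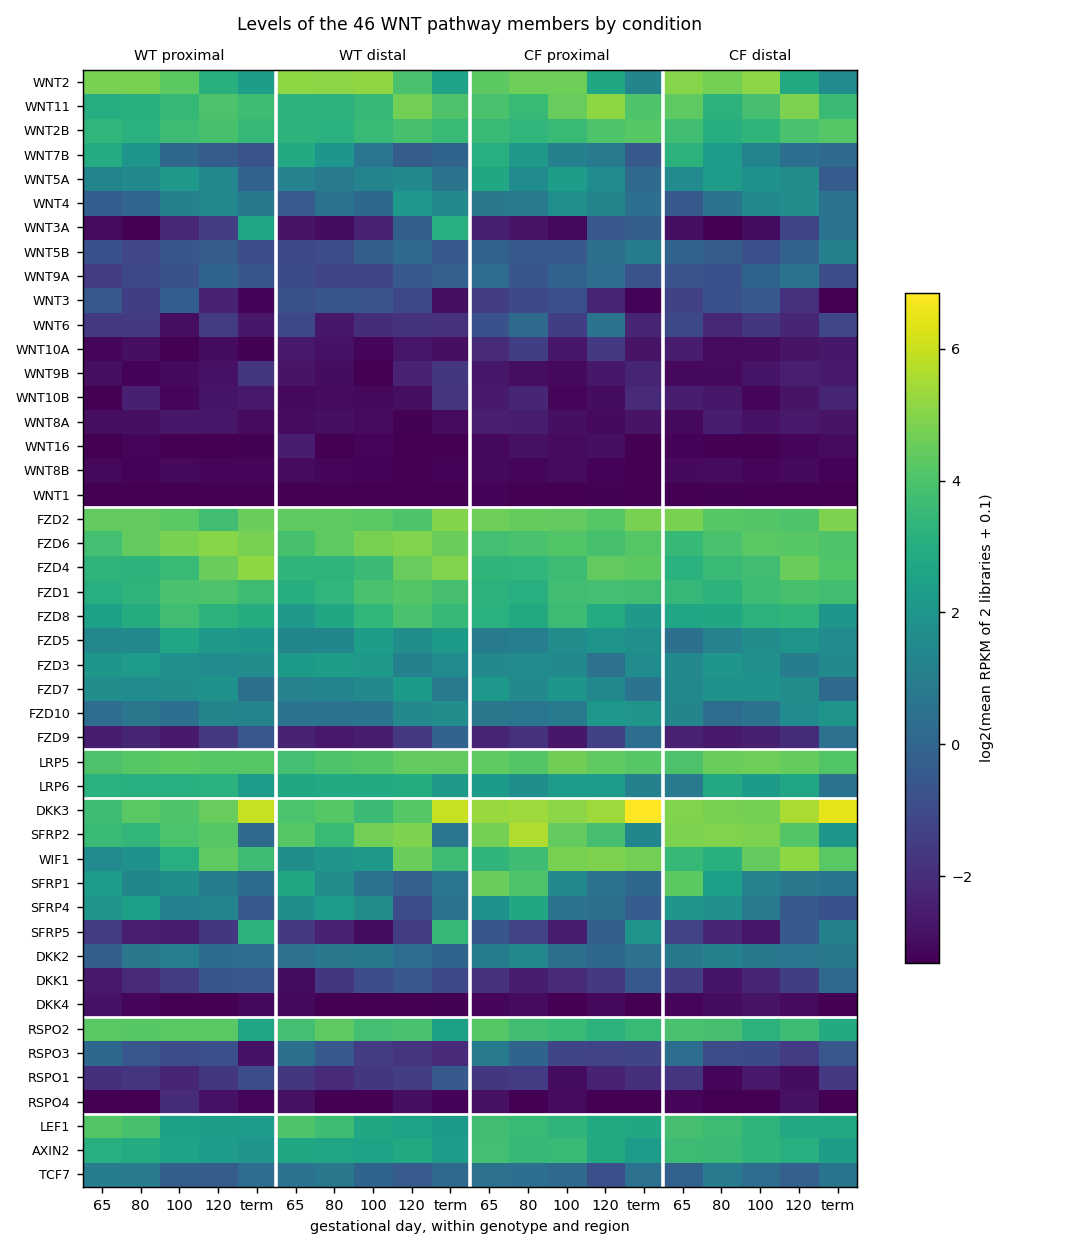
Mean level of each of the 46 members (rows, grouped by role) in each of the 20 conditions (columns: genotype, region and gestational day), as log2 of mean RPKM of 2 libraries plus 0.1 (dark low, yellow high). WNT7B and LEF1 turn darker from day 65 to day 120, SFRP2 and RSPO2 turn darker at WT term, and WNT3A and SFRP5 turn lighter at WT term.

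A gene was called when its adjusted p was at most 0.05 in edgeR's quasi-likelihood test over all genes that passed the filter. Over the 5 days, 21 of 39 members tested changed in WT proximal lung and 25 of 39 in WT distal lung, where 40.8% and 40.4% of all genes did. In CF distal lung 16 of 42 members changed, against 33.9% of all genes, and in CF proximal lung 3 of 43 (SFRP1, WNT2 and WNT7B), against 5.36%. Over all genes 1056 passed in CF proximal lung. When 1 library was left out, the count of all genes moved with that of the members, and it stands in parentheses after each, members included. The CF proximal count was 1 (of 289 to 469) without CF proximal day 65 replicate 1, day 100 replicate 1 or day 100 replicate 2, 0 (of 250) without day 65 replicate 2, 14 (of 4153) without day 120 replicate 1 and 8 (of 2535) without day 120 replicate 2.

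From day 65 to day 120, 12 of 39 members changed in WT proximal lung (7 up, 5 down), where 20.1% of all genes did (10.7% and 9.38% up and down). In WT distal lung 18 of 39 did (11 up, 7 down), where 18.2% of all genes did (9.92% and 8.24%). The median log2 fold change of the tested members was 0.46 proximally and 0.40 distally, against -0.02 and -0.03 over all genes. Among CF distal libraries 9 of 42 changed (3 up, 6 down), against 12.1% of all genes (7.1% and 5.01%). CF proximal lung had WNT7B alone, against 1.66% (327 genes). The WT distal count was 11 (of 1971) without WT distal day 65 replicate 2, 9 (of 1435) without day 120 replicate 1 and 10 (of 1700) without day 120 replicate 2. The CF distal count was 5 (of 1237) without CF distal day 65 replicate 1, 2 (of 698) without day 65 replicate 2 and 3 (of 1093) without day 120 replicate 1, and the CF proximal count was 0 (of 1 to 2) without CF proximal day 65 replicate 1 or day 65 replicate 2 and 9 (of 3886) without day 120 replicate 1.

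From day 120 to term, 11 of 39 members changed in WT proximal lung (3 up, 8 down), against 24.6% of all genes (13.5% and 11.1% up and down). In WT distal lung 14 of 39 changed (7 up, 7 down), against 25.8% (13.5% and 12.3%). Among CF distal libraries 8 of 42 changed (3 up, 5 down), against 23% (11.5% and 11.5%). In CF proximal lung no member passed, against 0.356% of all genes (70 genes). In that course 10 members had an unadjusted p under 0.05, as did 2967 of 19690 genes tested, and DESeq2 called 4 members among 1396 genes. Here the WT proximal count was 4 (of 2567) without WT proximal day 120 replicate 1 and 5 (of 2073 to 2326) without day 120 replicate 2 or term replicate 2. The WT distal count was 6 (of 1640) without WT distal day 120 replicate 1 and 7 (of 2304) without day 120 replicate 2. The CF distal count was 2 (of 1076) without CF distal day 120 replicate 1 and 1 (of 1199) without term replicate 2, and the CF proximal count 4 (of 1317) without CF proximal day 120 replicate 1.

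The study's own limits for a changed gene were stricter, an adjusted p of at most 0.001 and a log2 change of at least 0.58. Over the 5 days they left 8 against 10.6% of all genes in WT proximal, 9 against 7.48% of all genes in WT distal, 0 against 0.0254% of all genes in CF proximal and 2 against 3.59% of all genes in CF distal lung. From day 65 to day 120 they left 3 against 3.17% of all genes, 4 against 1.56% of all genes, 0 against 0% of all genes and 1 against 0.338% of all genes in that order. From day 120 to term they left 2 against 2.14% of all genes, 2 against 1.15% of all genes, 0 against 0% of all genes and 0 against 0.338% of all genes.

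WNT7B, the epithelial ligand, lies at chr3:220025118-220052477 on the Oar_v4.0 build and was the ligand whose fall from day 65 to day 120 was called in both regions of both genotypes. In WT proximal lung it stood at 36.1 and 29.6 CPM on day 65, 17 and 17.5 on day 80, 4.4 and 3.94 on day 100, 3.38 and 2.76 on day 120 and 2.11 and 2.24 at term. In CF proximal lung the same series was 33.8 and 36.4, 20.7 and 17.7, 8.55 and 9.42, 5.89 and 8.42 and 2.15 and 3.43 CPM. The day 65 libraries stood above all later ones in both. The fall to day 120 was 10.8-fold in WT proximal (log2 fold change -3.43 ± 0.22, adjusted p = 3.48e-05) and 10.5-fold in WT distal lung (log2 fold change -3.39 ± 0.23, adjusted p = 7.77e-05). It was 7.29-fold in CF distal (log2 fold change -2.87 ± 0.28, adjusted p = 0.000815) and 4.75-fold in CF proximal lung (log2 fold change -2.25 ± 0.36, adjusted p = 0.0329). Only the CF proximal call was lost without a library: it was lost in each fit without day 65 replicate 1 or day 65 replicate 2 (adjusted p = 0.235 to 0.304).

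WNT2, the mesenchymal ligand (chr4:50996179-51050036), fell over the same interval. WT distal lung held 51.1 and 95.6 CPM on day 65, 79.1 and 73.5 on day 100, 35.8 and 29.8 on day 120 and 14.5 and 9.97 at term. In CF distal lung it held 53.3 and 81.9, 66.2 and 77.9, 12.7 and 18.2 and 9.06 and 3.59 CPM on those days. Every term library was below every library of days 65 to 100. WNT2 fell to day 120 by 3.23-fold in WT proximal (log2 fold change -1.69 ± 0.24, adjusted p = 0.00135), 2.26-fold in WT distal (log2 fold change -1.17 ± 0.28, adjusted p = 0.0195) and 4.3-fold in CF distal lung (log2 fold change -2.10 ± 0.42, adjusted p = 0.0138). It fell again to term in WT distal (log2 fold change -1.44 ± 0.28, adjusted p = 0.00737) and WT proximal lung (log2 fold change -0.80 ± 0.23, adjusted p = 0.0367). The WT proximal fall to term was lost in each fit without day 120 replicate 1, day 120 replicate 2 or term replicate 2 (adjusted p = 0.108 to 0.193), and also with counts thinned to equal depth (adjusted p = 0.0654). In CF proximal lung the value was -1.54 ± 0.53 (adjusted p = 0.208), and its difference from that of WNT7B was not tested. The WT distal fall to day 120 was lost in each fit without day 65 replicate 2, day 120 replicate 1 or day 120 replicate 2 (adjusted p = 0.0796 to 0.129). The CF distal fall was lost in each fit without day 65 replicate 2 or day 120 replicate 1 (adjusted p = 0.0914 to 0.096). The WT distal fall to term was lost in the fit without day 120 replicate 1 (adjusted p = 0.0556).

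WNT11, a ligand mostly studied in beta-catenin-independent signalling, moved the other way before term. In WT distal lung it went from 20.5 and 19.9 CPM on day 65 to 58.7 and 51.1 on day 120 and 35.9 and 32.4 at term. In CF distal lung it was 43 and 43.3 CPM on day 65, 23.1 and 16.7 on day 80, 45.5 and 78.7 on day 120 and 28.3 and 23.4 at term. The day 120 libraries were the highest of the series in both. The rise to day 120 was called in WT proximal (log2 fold change 1.02 ± 0.30, adjusted p = 0.0409) and WT distal lung (log2 fold change 1.43 ± 0.15, adjusted p = 0.000659), and the fall to term in WT distal (log2 fold change -0.70 ± 0.15, adjusted p = 0.0111) and CF distal lung (log2 fold change -1.26 ± 0.28, adjusted p = 0.0162). The WT proximal rise was lost in each fit without day 65 replicate 1, day 65 replicate 2 or day 120 replicate 1 (adjusted p = 0.0664 to 0.248), and also with counts thinned to equal depth (adjusted p = 0.052). The WT distal fall was lost in the fit without day 120 replicate 1 (adjusted p = 0.0907). The CF distal fall was lost in the fit without term replicate 2 (adjusted p = 0.0887).

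WNT3A, a canonical ligand, was close to unread until late gestation and appeared in WT lung at term. Its WT libraries held 0 to 0.30 CPM on days 65 to 100, 0.294 to 1.07 on day 120 and 5.56 to 14 at term. CF libraries held 0.174 to 1.2 CPM on day 120 and 0.737 to 1.99 at term, below all 4 WT term libraries, as they were for 16.6% of all genes tested. The test of CF against WT at term did not call WNT3A, at -3.05 ± 1.32 (adjusted p = 0.215) proximally and -2.61 ± 0.86 (adjusted p = 0.057) distally on the log2 scale. The rise to term was called in WT proximal (log2 fold change 4.54 ± 1.00, adjusted p = 0.0135) and WT distal lung (log2 fold change 3.46 ± 0.80, adjusted p = 0.0152), and the earlier rise to day 120 in WT distal lung (log2 fold change 4.0 ± 1.02, adjusted p = 0.0273). The WT distal libraries of day 65 held 4 and 0 reads of WNT3A, so the size of that last fitted change depends on the prior count. The proximal rise to term was lost in each fit without day 120 replicate 1, day 120 replicate 2 or term replicate 1 (adjusted p = 0.0577 to 0.0887). The distal rise to term was lost in each fit without day 120 replicate 1, day 120 replicate 2 or term replicate 1 (adjusted p = 0.0512 to 0.0919). The rise to day 120 was lost in each fit without day 65 replicate 2, day 120 replicate 1 or day 120 replicate 2 (adjusted p = 0.0614 to 0.101), and also with the bias-adjusted quasi-likelihood fit (adjusted p = 0.065). WNT9A, which lies near WNT3A on the same chromosome, stood at 1.16 to 2.11 CPM at WT term and was not called in any time course.

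Of the remaining ligands, WNT5A fell to term in WT proximal lung, from 7.49 and 4.86 CPM on day 120 to 2.72 and 1.17 (log2 fold change -1.67 ± 0.51, adjusted p = 0.0402). This call was lost in each fit without day 120 replicate 1, day 120 replicate 2 or term replicate 2 (adjusted p = 0.0712 to 0.199). WNT5B rose to day 120 in WT distal lung, from 1.14 and 1.15 to 2.31 and 4.04 CPM (log2 fold change 1.46 ± 0.41, adjusted p = 0.0381), and this call was lost in each fit without day 65 replicate 1, day 65 replicate 2 or day 120 replicate 2 (adjusted p = 0.112 to 0.224), and also with counts thinned to equal depth (adjusted p = 0.062). WNT3 was called lower at term than on day 120 in WT distal and CF distal lung. It reads 0.495 and 0.499 CPM on day 120 and 0.0452 and 0.0439 at term in WT distal lung, and 0.336 and 0.136 against no read in either term library in CF distal lung, too few for a fold change. WNT2B ranged over 18.8 to 37.4 CPM in all WT and 15.5 to 46.8 in all CF libraries, and was called only in the test over 5 days in CF distal lung.

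**Figure D2:**
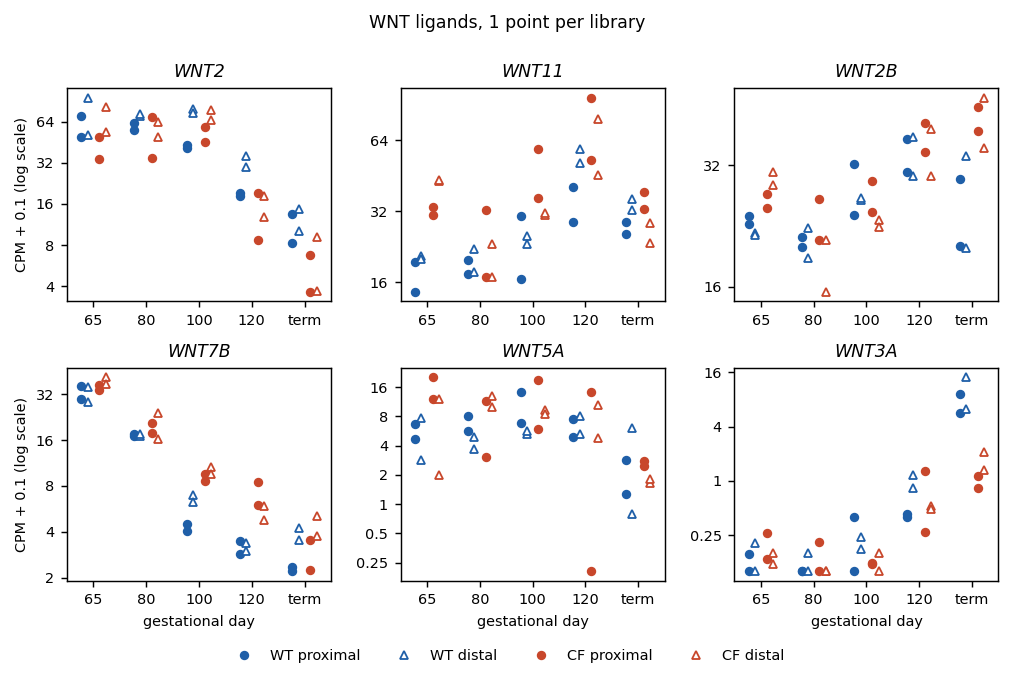
CPM plus 0.1 (log scale) of 6 WNT ligands by gestational day, 1 point per library (blue WT, red CF, circles proximal, triangles distal). WNT7B and WNT2 step down, WNT11 is highest on day 120 in the distal libraries, and WNT3A is highest in the 4 WT libraries at term.

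The make-up of the ligand transcripts shifted with these changes. As a share of the summed ligand RPKM in each library, WNT2 took 40.8 to 61.8% on day 65 and 10.4 to 15.2% at term in WT, and 26 to 46.6% and 3.56 to 9.41% in CF. WNT3A took 11.4 to 22.1% of the WT and 1.52 to 3.73% of the CF ligand transcripts at term. WNT2B took 16.4 to 34.8% in WT and 41.7 to 45.8% in CF at term. The shares of a library add up to a fixed total, so the differences of these 3 ligands are not independent of each other. The sum itself was 56.4 to 72.3 RPKM on day 65 and 37.2 to 53.2 at term in WT, and 60.9 to 82.2 and 36.2 to 46.6 in CF. These shares are descriptions over 4 libraries a point and were not tested.

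**Figure D3:**
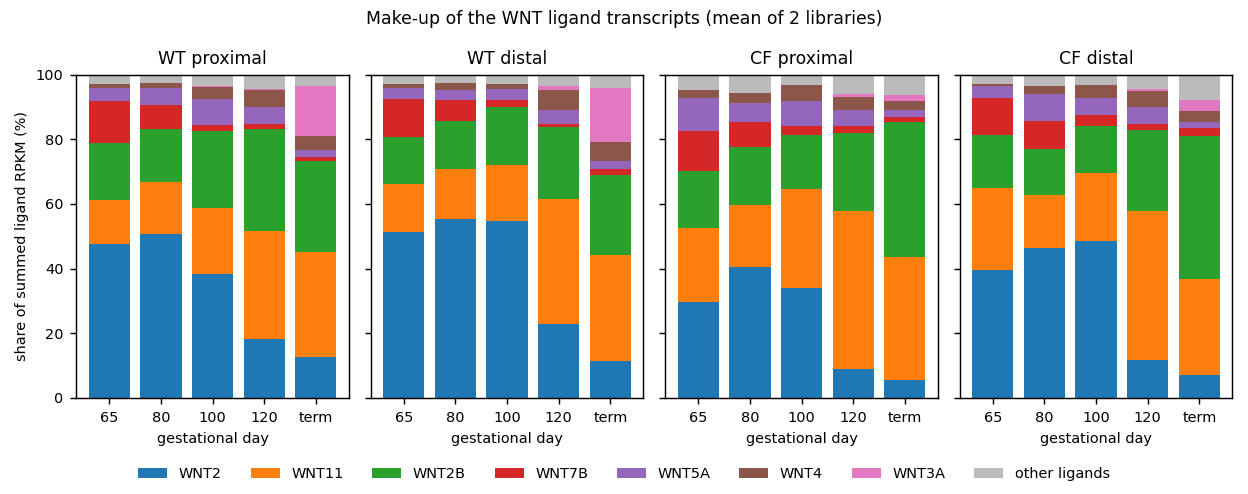
Share of the summed WNT ligand RPKM held by each ligand (stacked bars, mean of 2 libraries, percent) by gestational day in each genotype and region. WNT2 shrinks from day 120, WNT11 and WNT2B together make up most of each day 120 and term bar, and WNT3A is visible at WT term.

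Several Frizzled receptors rose before term in WT lung. From day 65 to day 120, 4 of 10 receptors rose in WT proximal lung and none fell, and 5 rose and 1 fell in WT distal lung, where 10.7% and 9.92% of all genes rose. In CF lung 3 of 10 rose distally, against 7.1% of all genes, and none was called proximally. FZD4, which also binds the vascular ligand norrin, stood at 73.8 and 62.1 CPM on day 65, 85 and 82.8 on day 100, 183 and 142 on day 120 and 254 and 240.2 at term in WT proximal lung. In CF proximal lung it stood at 69.8 and 70.8, 97.7 and 81.1, 171 and 126 and 166 and 107 CPM. WT term libraries were above those of day 120, while CF term libraries were not. The difference between the genotypes in the change from day 120 to term was called for no receptor in either region. FZD4 rose to day 120 in WT proximal (log2 fold change 1.25 ± 0.14, adjusted p = 0.000429), WT distal (log2 fold change 1.16 ± 0.14, adjusted p = 0.000975) and CF distal lung (log2 fold change 1.47 ± 0.29, adjusted p = 0.0128), and again to term in WT proximal (log2 fold change 0.60 ± 0.14, adjusted p = 0.0135) and WT distal lung (log2 fold change 0.42 ± 0.13, adjusted p = 0.0489). The CF distal rise was lost in each fit without day 65 replicate 1, day 65 replicate 2 or day 120 replicate 1 (adjusted p = 0.059 to 0.0988). The proximal rise to term was lost in the fit without day 120 replicate 2 (adjusted p = 0.0893). The distal rise to term was lost in each fit without day 120 replicate 1, day 120 replicate 2 or term replicate 1 (adjusted p = 0.0747 to 0.268), and also with RLE size factors, without the filter on low counts and with counts thinned to equal depth. Endothelial markers (6 genes counted) summed to 854 to 1009 CPM on day 65 and 1795 to 2204 CPM on day 120 in WT, and to 923 to 1055 and 1441 to 2380 CPM in CF, and their part in the FZD4 rise was not tested.

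FZD6, a receptor of the planar polarity branch, rose from 58 and 48.8 CPM on day 65 to 137 and 110.2 on day 120 in WT proximal lung (log2 fold change 1.20 ± 0.13, adjusted p = 0.000404). In WT distal lung it rose from 69.3 and 44.2 to 112 and 120.1 CPM (log2 fold change 1.02 ± 0.25, adjusted p = 0.0219). This WT distal call was lost in each fit without day 65 replicate 2, day 120 replicate 1 or day 120 replicate 2 (adjusted p = 0.0758 to 0.108). In CF distal lung it went from 50.2 and 34.9 to 73.5 and 66 CPM (log2 fold change 0.75 ± 0.21, adjusted p = 0.0462), and this call was lost in each fit without day 65 replicate 1, day 65 replicate 2 or day 120 replicate 1 (adjusted p = 0.0524 to 0.293), and also without the filter on low counts, with RLE size factors and with counts thinned to equal depth. FZD1 rose in WT proximal lung from 55.4 and 55 to 114 and 101 CPM (log2 fold change 0.95 ± 0.16, adjusted p = 0.00365). It rose in WT distal lung from 51.4 and 57.2 to 119 and 117 CPM (log2 fold change 1.11 ± 0.12, adjusted p = 0.00079). The day 120 libraries were above the day 65 libraries for FZD6 and FZD1 in each of these courses. FZD6 was not called in CF proximal lung. It held 49.3 and 57.4 CPM on day 65 and 76.5 and 36.7 on day 120 there, with overlap. FZD5 rose to day 120 in WT proximal (log2 fold change 0.78 ± 0.14, adjusted p = 0.00394) and CF distal lung (log2 fold change 1.62 ± 0.39, adjusted p = 0.0272), and the CF call was lost in each fit without day 65 replicate 1, day 65 replicate 2 or day 120 replicate 1 (adjusted p = 0.104 to 0.15). FZD8 rose in WT distal lung from 4.72 and 3.67 to 13.8 and 14.7 CPM (log2 fold change 1.75 ± 0.30, adjusted p = 0.00471).

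At term the receptors split. FZD7 fell from day 120 to term in 3 courses: WT proximal (log2 fold change -1.57 ± 0.45, adjusted p = 0.0312), WT distal (log2 fold change -1.47 ± 0.31, adjusted p = 0.0101) and CF distal lung (log2 fold change -1.61 ± 0.48, adjusted p = 0.0417). Its WT distal libraries went from 12.8 and 11.9 to 5.67 and 3.37 CPM and its CF distal libraries from 10.04 and 7.09 to 2.84 and 2.82. These groups did not overlap. The WT proximal fall was lost in each fit without day 120 replicate 1, term replicate 1 or term replicate 2 (adjusted p = 0.051 to 0.178). The WT distal fall was lost in the fit without day 120 replicate 1 (adjusted p = 0.0585). The CF distal fall was lost in each fit without day 120 replicate 1, term replicate 1 or term replicate 2 (adjusted p = 0.1 to 0.173). FZD9, the receptor with the lowest mean RPKM over the 40 libraries, rose to term in WT distal (log2 fold change 1.86 ± 0.50, adjusted p = 0.0273) and CF distal lung (log2 fold change 3.05 ± 0.70, adjusted p = 0.0184), where it went from 0.421 and 1.22 to 5.99 and 7.58 CPM. The WT distal rise was lost in each fit without day 120 replicate 1, day 120 replicate 2 or term replicate 2 (adjusted p = 0.104 to 0.169). The CF rise was lost in each fit without day 120 replicate 1 or term replicate 2 (adjusted p = 0.0736 to 0.102). FZD2 rose to term in WT distal lung, from 58 and 52.7 to 123 and 82.6 CPM (log2 fold change 0.87 ± 0.18, adjusted p = 0.00872). That call was lost in the fit without day 120 replicate 2 (adjusted p = 0.0635).

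The co-receptors differed from each other in how much they varied. LRP5 stayed within 72.8 to 134 CPM in WT and 61.4 to 153 CPM in CF, and of the time courses it was called only for a rise to day 120 in WT distal lung (log2 fold change 0.60 ± 0.17, adjusted p = 0.0434), which was lost in each fit without day 65 replicate 1, day 65 replicate 2, day 120 replicate 1 or day 120 replicate 2 (adjusted p = 0.114 to 0.158). LRP6 was at 28.7 to 61.5 CPM in WT before term and 6.07 to 62.6 CPM in CF before term, where replicates of a condition stood far apart. In CF proximal lung its day 120 libraries held 45.7 and 7.5 CPM and its day 80 libraries 6.07 and 29.5, and in CF distal lung its day 120 libraries held 62.6 and 8.14. The spread followed the length slope given above: the 10 CF libraries with a slope below 0 held 6.07 to 12.6 CPM and the 10 with a slope of 0 or above held 15.2 to 62.6, so the ranges did not overlap, as for 3.24% of the 20770 genes compared and for no other member. Of the 10 libraries below 0, 4 were the term libraries, so that slope and age are mixed. In WT the 6 libraries below 0, 4 of them at term, held 14.1 to 38.6 CPM and the other 14 held 36.3 to 61.5, with overlap. The part of the slope in LRP6 was not tested.

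LRP6 fell to term in WT proximal lung, from 54.2 and 46.1 to 30.9 and 22.9 CPM (log2 fold change -0.90 ± 0.24, adjusted p = 0.0232). That call was lost in each fit without day 120 replicate 1, day 120 replicate 2 or term replicate 2 (adjusted p = 0.0586 to 0.142). It is listed lower at term in CF distal lung too (log2 fold change -2.22 ± 0.75, adjusted p = 0.0608), a value that did not pass but did with DESeq2, without the filter on low counts, and without CF distal day 120 replicate 2.

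Among the secreted inhibitors, WIF1 rose and SFRP1 fell before term. WIF1 stood at 9.62 and 3.46 CPM on day 65, 6.68 and 9.75 on day 80, 16.6 and 19.6 on day 100, 49.2 and 41.3 on day 120 and 27.4 and 28.8 at term in WT proximal lung. It rose to day 120 by 6.89-fold there (log2 fold change 2.79 ± 0.40, adjusted p = 0.00155) and by 7.26-fold in WT distal lung (log2 fold change 2.86 ± 0.59, adjusted p = 0.011). The WT distal call was lost in the fit without day 120 replicate 1 (adjusted p = 0.0571). SFRP1 went from 111 and 41.4 CPM on day 65 to 4.67 and 7.81 on day 120 in CF distal lung, and from 38.4 and 13.7 to 3.14 and 2.95 in WT distal lung. All day 65 libraries were above those of day 120. SFRP1 fell 11.9-fold in CF distal (log2 fold change -3.57 ± 0.56, adjusted p = 0.00505), 8.65-fold in WT distal (log2 fold change -3.11 ± 0.48, adjusted p = 0.00303) and 2.57-fold in WT proximal lung (log2 fold change -1.36 ± 0.30, adjusted p = 0.0123). The WT proximal call was lost in each fit without day 65 replicate 1, day 120 replicate 1 or day 120 replicate 2 (adjusted p = 0.0518 to 0.0824). DKK1, the LRP-blocking inhibitor, was called higher on day 120 than on day 65 in both WT regions at 1.82 CPM or less in every WT library, the proximal call lost in the fit without day 65 replicate 2 (adjusted p = 0.0532).

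SFRP2 fell steeply at term. WT distal lung held 17.4 and 14.8 CPM on day 65, 23.6 and 28.2 on day 120 and 1.29 and 1.38 at term, and WT proximal lung 19.8 and 12.9 on day 120 and 1.0 and 0.821 at term. CF distal lung held 17.5 and 13.7 CPM on day 120 and 5.07 and 2.2 at term. Term libraries were below all others of their course in each. The fall to term was 18-fold in WT proximal (log2 fold change -4.17 ± 0.37, adjusted p = 0.000213), 19.6-fold in WT distal (log2 fold change -4.29 ± 0.24, adjusted p = 5.4e-05) and 4.31-fold in CF distal lung (log2 fold change -2.11 ± 0.49, adjusted p = 0.0191). The CF distal call was lost in each fit without day 120 replicate 1 or term replicate 2 (adjusted p = 0.086 to 0.0984). Mesenchymal marker sums moved the same way in WT, from 7902 to 13542 CPM before term to 3624 to 6794 at term, and their part was not tested.

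SFRP5 and DKK3 moved up at term. SFRP5 was at 0 to 0.648 CPM in WT before term and 15.4 to 21.9 at term, and the rise was called in WT proximal (log2 fold change 5.53 ± 0.84, adjusted p = 0.00213) and WT distal lung (log2 fold change 5.47 ± 0.76, adjusted p = 0.00224) and kept in all 4 fits that left out 1 library in each region. CF term libraries held 1.61 and 11.9 CPM proximally and 1.16 and 6.61 distally, below the 4 WT libraries, as for 16.6% of all genes tested, and CF against WT at term did not pass (-1.35 ± 1.12, adjusted p = 0.561 proximally and -2.33 ± 1.06, adjusted p = 0.151 distally). DKK3 went from 63.6 and 23.3 to 184 and 133 CPM in WT distal (log2 fold change 1.85 ± 0.50, adjusted p = 0.0267) and from 93.9 and 139.5 to 215 and 220.2 in CF distal lung (log2 fold change 0.90 ± 0.21, adjusted p = 0.0186). Term libraries were the highest in both. The WT rise was lost in each fit without day 120 replicate 2 or term replicate 1 (adjusted p = 0.0603 to 0.12). The CF rise was lost in each fit without day 120 replicate 1 or term replicate 2 (adjusted p = 0.0659 to 0.0953). Marker sums moved with these WT rises and that of WNT3A. Macrophage markers (5 genes counted) went from 41.5 to 86.3 CPM in WT before term to 382 to 827 CPM at term, and epithelial markers from 609 to 986 CPM to 1676 to 1957 CPM. In CF at term they summed to 73.5 to 111 CPM and 809 to 1777 CPM. Their part in these rises was not tested.

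SFRP4 moved in opposite directions in the WT regions. It went from 3.64 and 4.03 to 0.837 and 1.38 CPM from day 120 to term proximally (log2 fold change -1.79 ± 0.51, adjusted p = 0.0311) and from 0.619 and 0.749 to 2.27 and 2.54 CPM distally (log2 fold change 1.78 ± 0.40, adjusted p = 0.0129). The distal day 120 libraries were the low ones: from day 65 to day 120 SFRP4 had fallen 8.16-fold in WT distal (log2 fold change -3.03 ± 0.41, adjusted p = 0.00175) and 6.01-fold in CF distal lung (log2 fold change -2.59 ± 0.52, adjusted p = 0.0143). The proximal fall to term was lost in each fit without day 120 replicate 1, day 120 replicate 2, term replicate 1 or term replicate 2 (adjusted p = 0.0598 to 0.143). The distal rise was lost in each fit without day 120 replicate 1 or day 120 replicate 2 (adjusted p = 0.0596 to 0.0913). The CF distal fall was lost in each fit without day 65 replicate 2 or day 120 replicate 1 (adjusted p = 0.0518 to 0.0794).

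**Figure D4:**
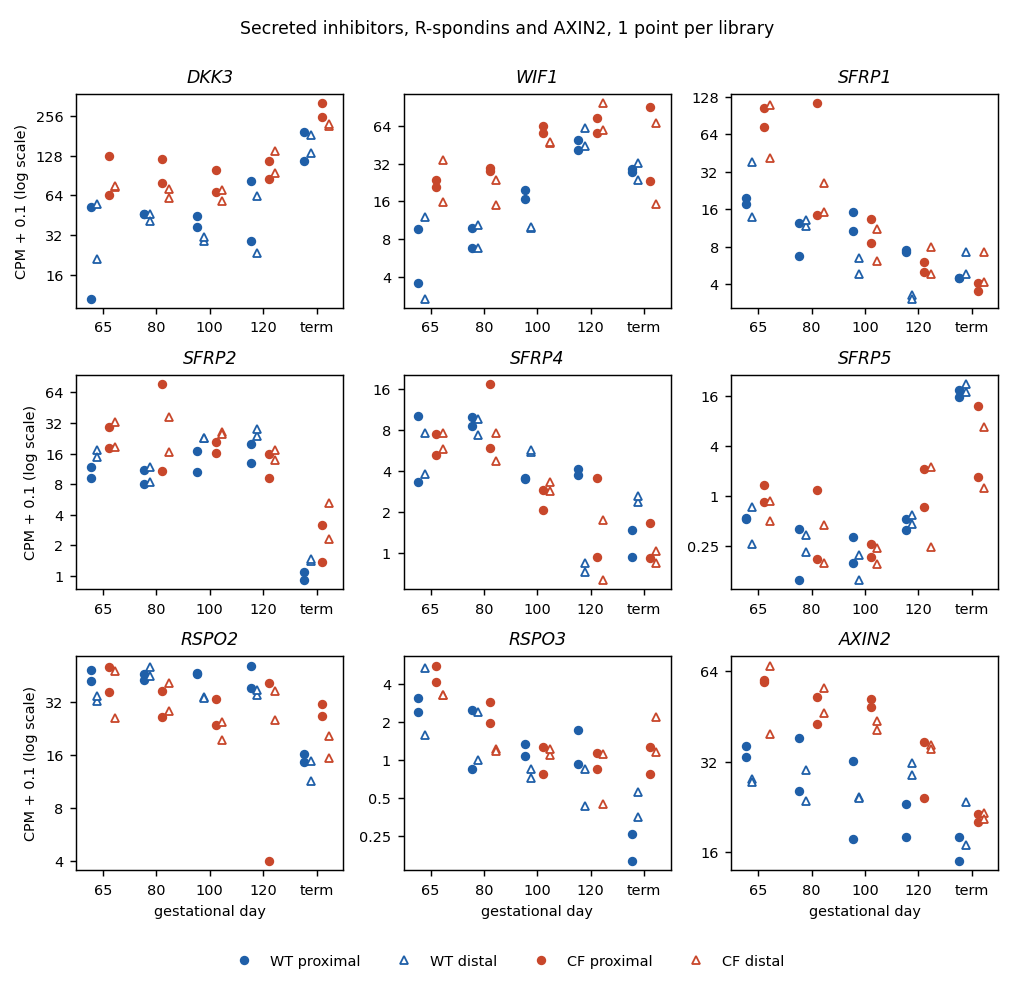
CPM plus 0.1 (log scale) of 6 secreted inhibitors, 2 R-spondins and AXIN2 by gestational day, 1 point per library (blue WT, red CF, circles proximal, triangles distal). SFRP2 drops at term and SFRP5 is highest in the 4 WT term libraries. Within each region CF libraries lie above WT libraries of the same day for DKK3 and AXIN2 on days 65 to 120, as for 8.14% of all genes tested proximally and 10.2% distally.

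RSPO2, the most abundant R-spondin, fell at WT term. It held 38.6 and 51.6 CPM on day 120 and 16.1 and 14.6 at term in WT proximal lung, and 35.2 and 37.5 and 14.8 and 11.3 in WT distal lung. In CF proximal lung it held 40.8 and 3.92 on day 120 and 26.6 and 31.3 at term. The WT groups did not overlap, and the fall was 2.94-fold proximally (log2 fold change -1.56 ± 0.15, adjusted p = 0.00033) and 2.82-fold distally (log2 fold change -1.49 ± 0.15, adjusted p = 0.000583), kept in every fit that left out 1 library. CF proximal day 120 replicate 2, with the lowest length slope of all CF libraries before term, stood apart for RSPO2 and also held the lowest CF level of WNT5A at 0.104 CPM and of TCF7 at 0.209 CPM. RSPO3 fell to term in WT proximal lung, from 1.64 and 0.828 to 0.157 and 0.0586 CPM (log2 fold change -3.50 ± 0.74, adjusted p = 0.009). That call was lost in each fit without day 120 replicate 1 or term replicate 2 (adjusted p = 0.0503 to 0.0639). It fell to day 120 in WT distal (log2 fold change -2.64 ± 0.78, adjusted p = 0.048) and CF distal lung (log2 fold change -2.20 ± 0.56, adjusted p = 0.0356), the former lost in each fit without day 65 replicate 1, day 120 replicate 1 or day 120 replicate 2 (adjusted p = 0.105 to 0.262) and also with the bias-adjusted quasi-likelihood fit and counts thinned to equal depth, the latter lost in each fit without day 65 replicate 1, day 65 replicate 2 or day 120 replicate 1 (adjusted p = 0.0831 to 0.154).

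LEF1, which acts at the end of the pathway in the nucleus, fell before term. WT distal lung held 39.7 and 74.9 CPM on day 65, 42 and 46.7 on day 80, 23.7 and 24.1 on day 100, 22 and 19.6 on day 120 and 19.8 and 11.9 at term. CF distal lung held 47 and 54.1, 41.3 and 46.1, 36.1 and 32.3, 18.3 and 30.9 and 28.9 and 20.4 CPM. Day 65 libraries were above those of day 120 in both. The fall to day 120 was called in WT proximal (log2 fold change -1.79 ± 0.32, adjusted p = 0.00491), WT distal (log2 fold change -1.47 ± 0.31, adjusted p = 0.0117) and CF distal lung (log2 fold change -1.01 ± 0.27, adjusted p = 0.0417), and in CF proximal lung the value was -0.87 ± 0.35 (adjusted p = 0.276). The WT distal call was lost in each fit without day 65 replicate 2, day 120 replicate 1 or day 120 replicate 2 (adjusted p = 0.0606 to 0.0842). The CF distal call was lost in each fit without day 65 replicate 1, day 65 replicate 2 or day 120 replicate 1 (adjusted p = 0.077 to 0.215). LEF1 was not called from day 120 to term in any course. Marker sums of other cell states fell over the same days as LEF1, WNT7B and WNT2. Proliferation markers (6 genes, such as MKI67) summed to 752 to 848 CPM on day 65 and 180 to 215 CPM on day 120 in WT, and to 558 to 691 and 125 to 299 CPM in CF. Cartilage markers (4 genes counted) went from 329 to 452 CPM to 14.2 to 28.1 CPM in WT and from 461 to 506 CPM to 24.4 to 105 CPM in CF. Their part in these falls was not tested.

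TCF7 fell to day 120 in WT proximal lung, from 5.6 and 5.93 to 2.2 and 2.07 CPM (log2 fold change -1.44 ± 0.36, adjusted p = 0.0226). That call was lost in each fit without day 65 replicate 1, day 65 replicate 2, day 120 replicate 1 or day 120 replicate 2 (adjusted p = 0.0587 to 0.112). AXIN2, often read as a gauge of canonical signalling, fell to term in WT distal lung from 31.7 and 28.7 to 23.5 and 16.8 CPM (log2 fold change -0.61 ± 0.18, adjusted p = 0.0402) and in CF distal lung from 36.4 and 35.2 to 21.5 and 20.5 CPM (log2 fold change -0.78 ± 0.24, adjusted p = 0.0465). Term libraries were below those of day 120 in both. The WT call was lost in each fit without day 120 replicate 1, day 120 replicate 2 or term replicate 2 (adjusted p = 0.0918 to 0.19). The CF call was lost in each fit without day 120 replicate 1, day 120 replicate 2, term replicate 1 or term replicate 2 (adjusted p = 0.0611 to 0.153), and also with RLE size factors and with the gene length trend removed. The proliferation markers summed to 105 to 233 CPM at WT term and 21.8 to 41.4 CPM at CF term, and their part in these values was not tested.

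CF and WT were compared over days 65 to 120 in each region. Proximally 11 of 43 members passed (9 higher in CF, 2 lower), where 20.6% of all genes did (13.8% and 6.77% higher and lower). The 9 include WNT10A and WNT16, which did not pass the filter on low counts in WT proximal lung alone. Distally 11 passed as well (7 higher, 4 lower), where 32.3% did (18.6% and 13.6%). Under the study's limits the proximal count was 0 against 2.5% of all genes and the distal count 1 against 6.86% of all genes. The median log2 fold change of the members was 0.23 proximally and 0.17 distally, against 0.07 and 0.03 over all genes. The distal count held at 8 to 12 in the 16 fits that left out 1 library, and the proximal count was 7 (of 2932 to 3155) without WT proximal day 120 replicate 2, CF proximal day 65 replicate 1 or CF proximal day 100 replicate 2. Genotype went with depth before term, and thinning every library to equal depth gave 9 members proximally and 10 distally. Summed smooth muscle markers (6 genes) were also higher in CF before term, 747 to 1451 CPM against 286 to 734 CPM in WT proximally and 638 to 1516 against 295 to 765 CPM distally, and their part in these differences was not tested.

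The inhibitors WIF1, DKK3 and SFRP1 were higher in CF in both regions. WIF1 held 3.46 to 49.2 CPM in the 8 WT proximal libraries before term and 20.9 to 73.6 in the 8 CF ones. Day by day it was 56 and 63.9 in CF against 16.6 and 19.6 CPM in WT on day 100 and 73.6 and 55.9 against 49.2 and 41.3 on day 120. Both CF libraries were above both WT libraries on all 4 days, as they were for 8.14% of all genes tested, while distally the genotypes overlapped on day 120. WIF1 was 2.73-fold higher in CF proximally (log2 fold change 1.45 ± 0.26, adjusted p = 0.00169) and 2.73-fold distally (log2 fold change 1.45 ± 0.32, adjusted p = 0.00345). DKK3 was 2.23-fold higher proximally (log2 fold change 1.16 ± 0.30, adjusted p = 0.0162) and 2.02-fold distally (log2 fold change 1.02 ± 0.21, adjusted p = 0.00209), without overlap on any of the 4 days in either region, as for 8.14% and 10.2% of all genes tested. These 4 calls were kept in all 16 fits that left out 1 library.

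SFRP1 was higher in CF at the early ages. Its proximal libraries held 105 and 73.9 CPM in CF against 19.5 and 17.5 in WT on day 65, 14.2 and 113 against 6.64 and 12.3 on day 80, 8.43 and 13.2 against 15.1 and 10.6 on day 100 and 4.86 and 5.92 against 7.17 and 7.34 on day 120. CF was above WT without overlap on days 65 and 80, the groups overlapped on day 100, and CF was below WT without overlap on day 120. The share of all genes separated on single days was computed only at term. It was 24.6% above and 29.7% below in CF proximal lung. The mean SFRP1 difference over 4 days was 1.08 ± 0.31 (adjusted p = 0.0245) on the log2 scale proximally and 0.98 ± 0.26 (adjusted p = 0.0096) distally. The distal call was kept in all 16 fits that left out 1 library, and the proximal call was lost in each fit without WT proximal day 65 replicate 2, WT proximal day 80 replicate 1, WT proximal day 100 replicate 2, WT proximal day 120 replicate 1, WT proximal day 120 replicate 2, CF proximal day 65 replicate 1, CF proximal day 80 replicate 2 or CF proximal day 100 replicate 2 (adjusted p = 0.0508 to 0.0622). It was also lost with the WT day 100 libraries, which carry the same animal label, summed to 1 (adjusted p = 0.0519).

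AXIN2, the canonical target gene, was higher in CF throughout days 65 to 120. In proximal lung CF held 59 and 59.7 CPM against 36.1 and 33.1 in WT on day 65, 52.4 and 42.6 against 38.3 and 25.4 on day 80, 51.7 and 48.8 against 17.6 and 32.1 on day 100 and 37.2 and 24.1 against 23 and 17.8 on day 120. In distal lung the same pairs were 66.8 and 39.3 against 28 and 27.3, 46.3 and 56 against 29.9 and 23.6, 43.7 and 40.8 against 24.4 and 24.1 and 36.4 and 35.2 against 31.7 and 28.7 CPM. CF lay above WT on all 4 days in both regions, without overlap, as for 8.14% of all genes tested proximally and 10.2% distally. The difference was 1.67-fold proximally (log2 fold change 0.74 ± 0.15, adjusted p = 0.00393) and 1.66-fold distally (log2 fold change 0.73 ± 0.11, adjusted p = 0.000222), kept in all 16 fits that left out 1 library in each region. With LEF1 the difference was 0.15 ± 0.17 (adjusted p = 0.592) proximally and 0.13 ± 0.16 (adjusted p = 0.554) distally, and with TCF7 -0.32 ± 0.39 (adjusted p = 0.621) and 0.01 ± 0.23 (adjusted p = 0.992).

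Of the ligands, WNT11 was higher in CF proximally (log2 fold change 0.87 ± 0.19, adjusted p = 0.00715) and distally (log2 fold change 0.41 ± 0.11, adjusted p = 0.0136), and WNT7B proximally (log2 fold change 0.64 ± 0.14, adjusted p = 0.00546) and distally (log2 fold change 0.48 ± 0.12, adjusted p = 0.00593). The distal WNT11 call was lost in the fit without CF distal day 80 replicate 1 (adjusted p = 0.0526). WNT7B differed on the later days: proximal CF libraries held 8.55 and 9.42 CPM against 4.4 and 3.94 in WT on day 100 and 5.89 and 8.42 against 3.38 and 2.76 on day 120, while on day 65 they held 33.8 and 36.4 against 36.1 and 29.6. The genotypes separated on days 80 to 120 and overlapped on day 65, and the share of all genes separated on those days was not computed. WNT9A passed distally only (log2 fold change 0.87 ± 0.30, adjusted p = 0.0402), and lost its call in 13 of the 16 fits that left out 1 library (adjusted p = 0.0605 to 0.171). It was also lost with the WT day 100 libraries summed (adjusted p = 0.081), with the bias-adjusted quasi-likelihood fit and with the gene length trend removed. WNT6, WNT10A and WNT16 were called higher in CF proximal lung at low counts. WNT10A held 0.0592 to 0.968 CPM there against 0 to 0.151 in WT. WNT10A and WNT16 passed the filter on low counts in CF but not in WT proximal lung, and the CF libraries were also deeper, so that these 2 calls are given as a description. The calls of WNT6, WNT10A and WNT16 were lost in 11, 8 and 13 of the 16 fits that left out 1 library, and those of WNT6 and WNT16 also with the WT day 100 libraries summed.

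Of the 10 receptors, 2 were lower in CF proximally and 3 distally, against 6.77% and 13.6% of all genes, and none was called higher. FZD6 held 36.7 to 76.5 CPM in CF and 48.8 to 137 in WT proximal lung before term, and was lower proximally (log2 fold change -0.57 ± 0.14, adjusted p = 0.0104) and distally (log2 fold change -0.52 ± 0.11, adjusted p = 0.00294). On day 120 its proximal libraries held 76.5 and 36.7 CPM in CF and 137 and 110.2 in WT. FZD3, with FZD6 a receptor of the planar polarity branch, was lower proximally (log2 fold change -0.72 ± 0.18, adjusted p = 0.0123), with both CF libraries below both WT libraries on all 4 days, as for 4.91% of all genes tested. Distally FZD3 (log2 fold change -0.41 ± 0.15, adjusted p = 0.0465) and FZD5 (log2 fold change -0.42 ± 0.15, adjusted p = 0.0432) passed as well, but lost the call in 14 and 10 of the 16 fits that left out 1 library. Both were also lost with the WT day 100 libraries summed (adjusted p = 0.0755 and 0.0637), FZD3 without the filter on low counts and FZD5 with counts thinned to equal depth. RSPO1 was called lower in CF distally, at 0.0201 to 1.19 CPM against 0.392 to 1.25. LRP6 did not pass, at -1.02 ± 0.43 (adjusted p = 0.112) proximally and -0.74 ± 0.31 (adjusted p = 0.0814) distally, but passed in both regions with DESeq2 and with the gene length trend removed. It also passed in 3 proximal and 2 distal fits of the 16 that left out 1 library.

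**Figure D5:**
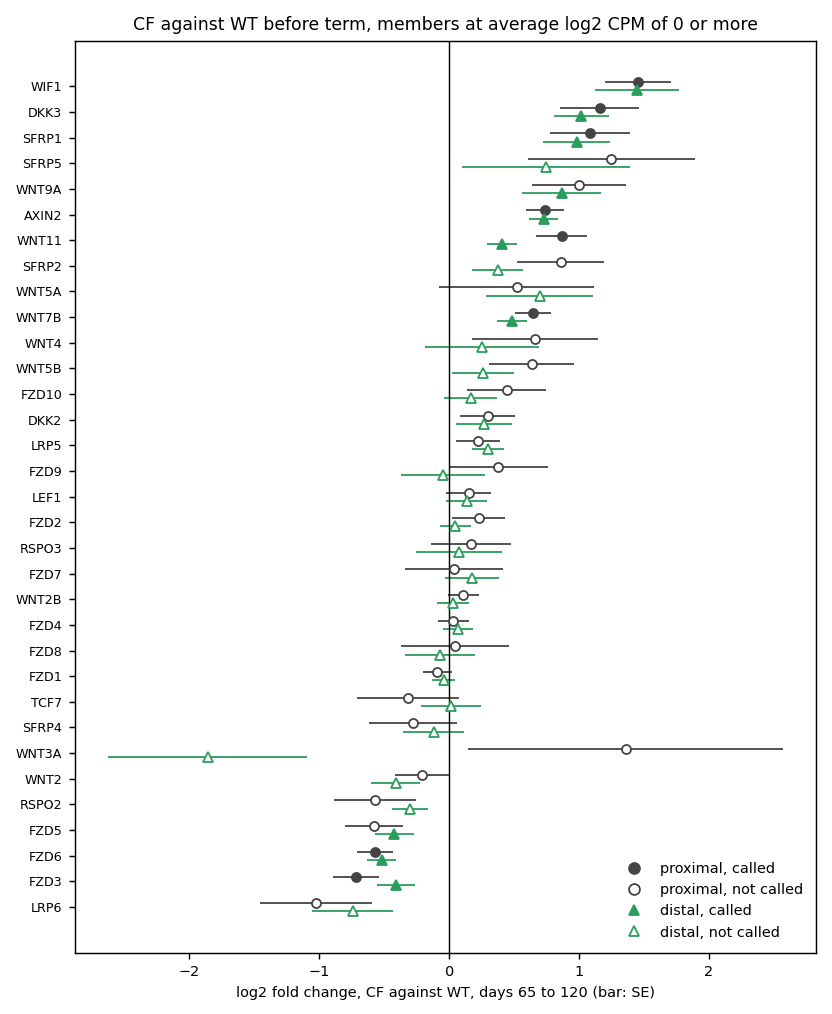
Fitted log2 fold change of CF against WT over days 65 to 120 (horizontal axis, bars 1 SE) for the 33 members whose mean log2 CPM in the proximal fit was not below 0, in proximal (circles) and distal lung (triangles); filled points passed an adjusted p of 0.05. WIF1, DKK3, SFRP1, AXIN2, WNT11 and WNT7B lie to the right with filled points in both regions, FZD6 and FZD3 to the left.

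At term, 1 of 43 members differed between CF and WT proximally, against 6.09% of all genes. Distally 6 did (3 higher, 3 lower), against 15.2% (7.65% and 7.57% higher and lower). Under the study's limits the counts were 0 against 0.339% of all genes and 0 against 1.25% of all genes. RSPO3 was the proximal one: CF held 0.679 and 1.17 CPM and WT 0.157 and 0.0586 (log2 fold change 3.08 ± 0.68, adjusted p = 0.0171), and distally CF held 2.09 and 1.06 and WT 0.253 and 0.456 (log2 fold change 2.17 ± 0.69, adjusted p = 0.0464). CF libraries were above WT libraries in both regions, as for 24.6% of all genes tested proximally and 23.2% distally. The proximal call was lost in each fit without WT proximal term replicate 2 or CF proximal term replicate 2 (adjusted p = 0.102 to 0.18). The distal call was lost in each fit without WT distal term replicate 1, WT distal term replicate 2, CF distal term replicate 1 or CF distal term replicate 2 (adjusted p = 0.0677 to 0.25), and also without the filter on low counts and with counts thinned to equal depth. The proximal count was 0 (of 296 to 388) without WT proximal term replicate 2 or CF proximal term replicate 2 and 2 (of 1691) without CF proximal term replicate 1, and the distal count 0 (of 1559) without WT distal term replicate 1 and 1 (of 1340) without CF distal term replicate 2.

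Distally at term SFRP2 held 5.07 and 2.2 CPM in CF and 1.29 and 1.38 in WT (log2 fold change 1.47 ± 0.41, adjusted p = 0.0258). WNT5B held 5.54 and 7.38 in CF and 1.74 and 2.3 in WT (log2 fold change 1.70 ± 0.47, adjusted p = 0.0268). Both were higher in CF, while SFRP4 and FZD4 were lower. SFRP4 held 0.928 and 0.747 CPM in CF against 2.27 and 2.54 in WT (log2 fold change -1.49 ± 0.47, adjusted p = 0.0469), and FZD4 155 and 87.9 against 234 and 197 (log2 fold change -0.80 ± 0.23, adjusted p = 0.0312). Each of these 4 calls was lost in 2 to 4 of the 4 fits that left out 1 library: that of SFRP2 without WT distal term replicate 1, WT distal term replicate 2 or CF distal term replicate 1 (adjusted p = 0.0955 to 0.255), that of WNT5B without WT distal term replicate 1, WT distal term replicate 2 or CF distal term replicate 2 (adjusted p = 0.0744 to 0.167), that of SFRP4 without WT distal term replicate 1, WT distal term replicate 2, CF distal term replicate 1 or CF distal term replicate 2 (adjusted p = 0.0686 to 0.205) and that of FZD4 without WT distal term replicate 1 or CF distal term replicate 2 (adjusted p = 0.134 to 0.207). WNT3 was the sixth call, with no read in either CF library, and was lost in each fit without WT distal term replicate 1, CF distal term replicate 1 or CF distal term replicate 2 (adjusted p = 0.0601 to 0.11). AXIN2, higher in CF before term, differed by 0.35 ± 0.30 (adjusted p = 0.575) proximally and 0.09 ± 0.22 (adjusted p = 0.826) distally at term. Marker sums also separated the genotypes distally at term. Macrophage markers summed to 382 to 827 CPM in WT and 91.3 to 111 CPM in CF, smooth muscle markers to 926 to 967 and 306 to 461 CPM, and proliferation markers to 105 to 233 and 21.8 to 41.4 CPM. Epithelial markers summed to 1878 to 1957 CPM in WT and 1116 to 1743 CPM in CF. Endothelial markers were higher in CF, at 1808 to 1976 CPM against 1202 to 1622 CPM. Their part in these differences was not tested.

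The change from day 120 to term was then compared between the genotypes. Distally SFRP2 alone of 43 members passed, falling less in CF than in WT (log2 fold change 2.19 ± 0.56, adjusted p = 0.0278), against 9.31% of all genes, and proximally none did, against 1.78%. Proximally 5 members had an unadjusted p under 0.05, as did 3203 of 20344 genes tested, and DESeq2 called 1 member among 1374 genes. Over all genes 362 passed proximally and 1869 distally. Under the study's limits the counts were 0 against 0.0442% of all genes proximally and 0 against 0.189% of all genes distally. The SFRP2 call was lost in each fit without WT distal day 120 replicate 1, WT distal day 120 replicate 2, WT distal term replicate 1, WT distal term replicate 2, CF distal day 120 replicate 1, CF distal day 120 replicate 2 or CF distal term replicate 1 (adjusted p = 0.054 to 0.0913), and it was also lost with the gene length trend removed. The distal count was 0 (of 739 to 1604) without WT distal day 120 replicate 1, WT distal day 120 replicate 2, WT distal term replicate 1 or WT distal term replicate 2, 5 (of 3028) without CF distal day 120 replicate 2 and 2 (of 3692) without CF distal term replicate 1, and the proximal count was 8 (of 3837) without CF proximal day 120 replicate 1 and 1 (of 1088) without term replicate 1. SFRP5 and WNT3A, which rose at WT term, gave differences of -3.72 ± 1.54 (adjusted p = 0.142) and -1.48 ± 1.20 (adjusted p = 0.483) distally, which did not pass.

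Proximal and distal lung were compared over the 5 days in each genotype, and no member passed in WT or in CF, where 0.016% and 0.00497% of all genes did. DESeq2 called no member either. An unadjusted p under 0.05 was found for 6 of 40 members and 596 of 18715 genes in WT, and for 3 of 43 members and 630 of 20126 genes in CF. Both regions of an animal carry its label, and with the animal as a block WNT2 was among the 0.0748% of all genes that passed in WT (log2 fold change -0.48 ± 0.05, adjusted p = 0.00865). In CF no gene passed with this block. WNT2 was lower in the proximal than in the distal library of the same number in 10 of 10 WT pairs, of which both day 100 pairs carry the same animal label, and in 8 of 10 CF pairs. Under the study's limits the counts were 0 against 0.00534% of all genes in WT and 0 against 0% of all genes in CF. SFRP2 was also lower proximally in 10 of 10 WT pairs (-0.53 ± 0.13, adjusted p = 0.898) and in 9 of 10 CF pairs. The share of all genes with such pair counts was not computed, so the pair counts are descriptions. On day 100 WNT2 held 42.9 and 41 CPM proximally and 79.1 and 73.5 distally in WT, and 45 and 58.5 and 66.2 and 77.9 in CF. The regional differences of the genes downstream and of the co-receptor were -0.05 ± 0.12 (adjusted p = 1) for AXIN2, -0.05 ± 0.15 (adjusted p = 1) for LEF1 and 0.01 ± 0.10 (adjusted p = 1) for LRP5 in WT.

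Where they did not pass, the genes at the end of the pathway and the co-receptors spread over the following log2 fold changes. Over the comparisons between days, genotypes and regions, AXIN2 had values of -0.91 to 0.35 (smallest adjusted p = 0.107), LEF1 of -0.87 to 0.67 (smallest adjusted p = 0.163) and TCF7 of -1.44 to 1.5 (smallest adjusted p = 0.063). LRP5 had values of -0.38 to 0.47 (smallest adjusted p = 0.0856) and LRP6 of -2.22 to 1.94 (smallest adjusted p = 0.0608). The wide ranges of LRP6 and TCF7 came with replicates that stood far apart, as at 2.56 and 0.209 CPM for TCF7 on CF proximal day 120.

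Beyond the 46 members, 50 further genes of the pathway were counted. From day 65 to day 120, 10 of 49 tested passed in WT proximal, 9 of 49 in WT distal, 2 of 50 in CF proximal and 6 of 50 in CF distal lung, where 20.1%, 18.2%, 1.66% and 12.1% of all genes did. NOTUM, an enzyme that inactivates WNT ligands by removing their lipid, rose in all 4 courses. Its log2 fold changes in that order were 2.45 ± 0.34 (adjusted p = 0.00118), 3.37 ± 0.37 (adjusted p = 0.000707), 1.92 ± 0.37 (adjusted p = 0.0468) and 1.68 ± 0.46 (adjusted p = 0.044). SP5, a target gene encoding a transcription factor, fell in all 4, by log2 fold changes of -2.63 ± 0.81 (adjusted p = 0.0497), -2.09 ± 0.39 (adjusted p = 0.00716), -2.53 ± 0.46 (adjusted p = 0.042) and -2.64 ± 0.55 (adjusted p = 0.0161). The CF proximal NOTUM call was lost in each fit without day 65 replicate 1, day 65 replicate 2 or day 120 replicate 2 (adjusted p = 0.0737 to 0.425). That of SP5 was lost in each fit without day 65 replicate 1, day 65 replicate 2 or day 120 replicate 2 (adjusted p = 0.0732 to 0.337). Both were also lost there with counts thinned to equal depth. The CF distal NOTUM call was lost in each fit without day 65 replicate 1, day 65 replicate 2, day 120 replicate 1 or day 120 replicate 2 (adjusted p = 0.0725 to 0.198). That of SP5 was lost in each fit without day 65 replicate 1 or day 120 replicate 1 (adjusted p = 0.0735 to 0.11). In WT proximal lung the SP5 call was lost in each fit without day 65 replicate 1, day 65 replicate 2, day 120 replicate 1 or day 120 replicate 2 (adjusted p = 0.0633 to 0.193), and also with thinned counts and the bias-adjusted quasi-likelihood fit. The WT distal SP5 call was lost in the fit without day 120 replicate 1 (adjusted p = 0.0594). The WT NOTUM rises were kept in every fit that left out 1 library. MYC fell in WT proximal (-1.25 ± 0.22, adjusted p = 0.00453), WT distal (-1.06 ± 0.21, adjusted p = 0.00916) and CF distal lung (-1.44 ± 0.25, adjusted p = 0.00828). The WT distal MYC call was lost in each fit without day 120 replicate 1 or day 120 replicate 2 (adjusted p = 0.0575 to 0.0691). The CF distal one was lost in the fit without day 120 replicate 1 (adjusted p = 0.0513). To term, 19 of 49 passed in WT proximal and 18 of 49 in WT distal lung, against 24.6% and 25.8% of all genes. In each 15 were lower, against 11.1% and 12.3% of all genes. NOTUM fell from day 120 to term in WT proximal (-1.01 ± 0.32, adjusted p = 0.0466) and WT distal lung (-1.80 ± 0.34, adjusted p = 0.00696). The proximal call was lost in each fit without day 120 replicate 1, day 120 replicate 2, term replicate 1 or term replicate 2 (adjusted p = 0.112 to 0.191), and also with counts thinned to equal depth, and the distal call was kept in all 4. Its distal change to term differed between the genotypes by 2.21 ± 0.60 (adjusted p = 0.0352). That call was lost in each fit without WT distal day 120 replicate 1, WT distal day 120 replicate 2, WT distal term replicate 1, CF distal day 120 replicate 1 or CF distal term replicate 1 (adjusted p = 0.0785 to 0.114). LGR5, an R-spondin receptor, rose at WT term (2.78 ± 0.37, adjusted p = 0.00117 proximally and 2.97 ± 0.47, adjusted p = 0.00338 distally) and ROR1, a WNT5A receptor, fell (-1.83 ± 0.17, adjusted p = 0.000259 and -2.01 ± 0.29, adjusted p = 0.00266). In CF distal lung 19 of 50 passed to term, against 23% of all genes, and 17 of the 19 were lower, against 11.5%, among them CELSR3, a planar polarity cadherin (-2.86 ± 0.41, adjusted p = 0.00429), and in CF proximal lung none did.

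Between the genotypes 9 of 50 of these genes passed proximally and 18 of 50 distally before term, where 20.6% and 32.3% of all genes did. All 9 were higher in CF proximally, and distally 17 were higher and 1 lower. Of all genes 13.8% and 6.77% were higher and lower proximally and 18.6% and 13.6% distally. At term 5 and 12 of 50 passed, against 6.09% and 15.2%. NOTUM was higher in CF in all 4 comparisons: before term 1.78 ± 0.18 (adjusted p = 5.19e-05) proximally and 1.56 ± 0.22 (adjusted p = 0.000112) distally, and at term 2.19 ± 0.36 (adjusted p = 0.00344) and 2.69 ± 0.45 (adjusted p = 0.00157). On day 65 it held 11 and 12 CPM in CF and 2.5 and 3.9 in WT proximal lung, and at term 29.5 and 50.7 and 8.26 and 9.36. Its CF libraries were above its WT libraries at both ages, at term as for 24.6% of all genes tested proximally. Before term CELSR3 (1.55 ± 0.25, adjusted p = 0.000933 proximally and 1.46 ± 0.19, adjusted p = 6.55e-05 distally) and the polarity gene SCRIB (1.37 ± 0.17, adjusted p = 0.000217 and 1.27 ± 0.14, adjusted p = 1.21e-05) were higher in CF as well. SP5 was higher in CF at term (2.72 ± 0.69, adjusted p = 0.0325 proximally and 1.75 ± 0.48, adjusted p = 0.0251 distally), and SOSTDC1, an antagonist of WNT and BMP signals, was lower (-1.93 ± 0.51, adjusted p = 0.0392 and -2.24 ± 0.42, adjusted p = 0.00354). Before term these calls were kept in all 16 fits that left out 1 library. At term the proximal NOTUM call was lost in the fit without WT proximal term replicate 2 (adjusted p = 0.0534). The SP5 call was lost in each fit without WT proximal term replicate 1, WT proximal term replicate 2 or CF proximal term replicate 2 (adjusted p = 0.096 to 0.24) proximally. Distally it was lost in each fit without WT distal term replicate 1, WT distal term replicate 2, CF distal term replicate 1 or CF distal term replicate 2 (adjusted p = 0.0584 to 0.137). The proximal SOSTDC1 call was lost in each fit without WT proximal term replicate 1, WT proximal term replicate 2 or CF proximal term replicate 2 (adjusted p = 0.0986 to 0.214).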

How the data were processed

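Raw read counts per gene were deposited by the authors in a table for each genotype and region, with gene positions and lengths. A further table that repeats the 20 CF columns with identical values was not used. Oligo dT primed cDNA was sequenced as 100 bp paired ends on a NovaSeq, and the submitters' processing notes name STAR and featureCounts with the sheep build Oar_v4.0. Of the members, AXIN2 alone shares exonic bases with another counted gene, 7 bases (0.165% of its length) with LOC105610544 on the opposite strand.

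From these counts, genes were kept by filterByExpr (10 reads, 15 in total), scaled by TMM and tested with edgeR 4.0.16 quasi-likelihood F tests in R 4.3.3, in 8 fits and 20 comparisons, with Benjamini-Hochberg adjustment over all genes kept in a fit. The error after ± is the standard error of the log2 fold change. CPM and RPKM are scaled over all 40 libraries. The fits of WT proximal lung, CF proximal lung, the genotypes distally and the WT regions were checked on simulated counts, for a single comparison each. The other fits were not. Groups came from the sample titles. With 2 libraries a group, p-values measure the spread between these libraries. DESeq2 1.42.0, RLE factors, a bias-adjusted quasi-likelihood fit, no filter, thinned counts, replicate blocks, removal of the gene length trend, the study's limits (adjusted p at most 0.001 and a log2 change of at least 0.58) and leaving out each library were alternatives.

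Proximal and distal libraries of a number carry the same animal label, so regions were paired by animal. Their deviations correlated at -0.0945 to 0.625 over 10 pairs. The members and gene lists were chosen with earlier results of these data known. Genes named in a comparison were up to 6 called members in each direction with the largest fitted change and an average log2 CPM of at least 0, with AXIN2, LEF1, TCF7, LRP5 and LRP6 throughout, the 3 members of highest mean RPKM in each role, every member filtered out as low, and up to 3 called genes in each direction of the other pathway genes. Members named at lower counts, and WNT9A in the time courses, were chosen after their values were seen.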

Additional observations from a re-analysis of the deposited data

Results flagged for a closer look

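SFRP2 was set apart by a difference between the genotypes in distal lung. It fell from day 120 to term in both, from 23.6 and 28.2 to 1.29 and 1.38 CPM in WT and from 17.5 and 13.7 to 5.07 and 2.2 CPM in CF, and the test of the difference itself gave an adjusted p of 0.0278. The call was lost in each fit without WT distal day 120 replicate 1, WT distal day 120 replicate 2, WT distal term replicate 1, WT distal term replicate 2, CF distal day 120 replicate 1, CF distal day 120 replicate 2 or CF distal term replicate 1 (adjusted p = 0.054 to 0.0913).

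SFRP4 was set apart by moving in opposite directions in the WT regions from day 120 to term, at a log2 fold change of -1.79 proximally and 1.78 distally. Both proximal libraries at term were below both of day 120 (0.837 and 1.38 against 3.64 and 4.03 CPM), and both distal libraries at term were above (2.27 and 2.54 against 0.619 and 0.749 CPM). The difference between the regions was not tested.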

How the results depend on the processing

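Counts of members called are given in the order any change, day 65 to 120 and day 120 to term. With the study's limits they were 8, 3 and 2 in WT proximal, 9, 4 and 2 in WT distal, 0, 0 and 0 in CF proximal and 2, 1 and 0 in CF distal lung. CF against WT then gave 0 proximally and 1 distally before term, 0 in each region at term, and 0 for the distal difference in change. DESeq2 gave 17, 4 and 4 in CF proximal lung (of 4046, 1816 and 1396 genes called in all). In CF distal lung it gave 27, 14 and 15 (of 10159, 4290 and 6595). It gave 4 and 10 for CF against WT at term proximally and distally (of 2599 and 4573), and 1 and 4 for the difference in change (of 1374 and 3319). The bias-adjusted quasi-likelihood fit gave 6 (of 1517) for any change and 2 (of 501) for day 65 to 120 in CF proximal lung. It gave 4 (of 1862) at term proximally and 2 (of 1944) for the distal difference in change. Without the filter on low counts CF proximal day 65 to 120 gave 2 (of 350), and thinned counts gave 2 (of 1915) for the distal difference in change. Removing the gene length trend was, for all but the CF against WT comparisons, an alternative chosen after seeing the data. It gave 8 (of 1809) and 3 (of 653) for any change and day 65 to 120 in CF proximal lung. It gave 3 (of 1669) at term proximally, and 1 (of 675) and 2 (of 2470) for the proximal and distal difference in change. RLE size factors and summing the WT day 100 libraries moved no count by over 1.5 times, but with those libraries summed SFRP1, WNT6 and WNT16 proximally and WNT9A, FZD3 and FZD5 distally were no longer called between the genotypes before term. The cause was not tested for any of these.

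Across genotypes and days a replicate number is only a number: same-numbered libraries correlated at -0.0872 to 0.243 over 10 genotype pairs and -0.416 to 0.616 over 40 pairs of days. With the number as a replicate block the counts were 1 (of 515) for any change and 0 (of 97) for day 65 to 120 in CF proximal lung. They were 2 (of 1115) at term proximally and 4 (of 2658) for the distal difference in change, and no other count moved by over 1.5 times. Among the genes given values in the text the block lost the calls of WNT11 in WT proximal (adjusted p = 0.061), RSPO3 in WT distal (adjusted p = 0.0524) and WNT7B in CF proximal lung (adjusted p = 0.0659) from day 65 to 120, with those of NOTUM and SP5 in CF proximal (adjusted p = 0.0975 and 0.089) and SP5 in WT proximal lung (adjusted p = 0.0628). It also lost WNT2 and NOTUM in WT proximal lung to term (adjusted p = 0.0548 and 0.0663) and WNT6 in CF against WT proximally before term (adjusted p = 0.0557), and called LRP6 lower in CF distally before term (log2 fold change -0.83 ± 0.26, adjusted p = 0.0235). With the animal block 1 member was called between the WT regions and none between the CF regions.

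Leaving out 1 library at a time gave 16 to 24, 9 to 11 and 4 to 8 in WT proximal, 19 to 29, 9 to 16 and 6 to 16 in WT distal, 0 to 14, 0 to 9 and 0 to 4 in CF proximal, and 12 to 21, 2 to 10 and 1 to 11 in CF distal lung. CF against WT gave 7 to 16 proximally and 8 to 12 distally before term, 0 to 2 and 0 to 4 at term, and 0 to 8 and 0 to 5 for the difference in change. Regions gave 0 to 0. No called member, and no other pathway gene named by the stated rule, changed direction under any alternative. Other pathway genes outside that rule were not followed through the alternatives. With 2 libraries a condition, members at low counts or with replicates far apart, such as WNT3, WNT16 and LRP6, were measured least precisely.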
